A study of Homo sapiens with 2 samples.

Results

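The ZNF genes of human chromosome 19 are the protein-coding genes there whose symbol is ZNF followed by a digit in GENCODE release 29. Of the 58735 genes listed in each deposited table, 249 are of this kind, 85 on the short arm and 164 on the long arm. They were chosen by name and position, and those compared between libraries were further selected on their measured level, 1 FPKM or more in the higher library. FPKM is the number of reads on a gene per kilobase of its exons, scaled to a common number of reads. Of the 249 genes, 168 reached that level. Of those, 131 reached it in both libraries, 15 only in the shSIK2 library and 22 only in the scrambled library. The genes that reached it in only 1 library had to differ between the libraries to some degree. Another 69 genes had reads but stayed below 1 FPKM, and 12 had no reads in either library.

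Most of these genes code for C2H2 zinc finger proteins, which bind DNA through tandem arrays of fingers, each folded around a zinc ion. Many carry a KRAB domain, which recruits the corepressor TRIM28 and through it the histone methyltransferase SETDB1 and heterochromatin proteins. They are best known for silencing retrotransposons, and they arose by repeated tandem duplication, so that chromosome 19 holds them in long runs of neighbours. The family is large and fast evolving, and most members are transcribed at low levels in most tissues.

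The study sequenced RNA from BT549 cells, an established line of triple-negative breast cancer, as 1 library of cells with a short hairpin RNA against SIK2 (shSIK2) and 1 library of cells with a scrambled control hairpin. Both were given the ligand Wnt3a for 2 h, so no library shows the cells without Wnt3a. SIK2 is a salt-inducible kinase known for phosphorylating CRTC coactivators, which otherwise act with CREB at cAMP response elements. With 1 library per group there is no replicate error and no test. Every difference below is a difference between these 2 libraries, and the 95% intervals of read ratios cover counting error only. In whole-culture RNA, fewer cells that transcribe a gene and less RNA per cell cannot be told apart. The sources used here do not say whether the shSIK2 cells are 1 clone.

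SIK2 itself stood at 3.56 FPKM (599 reads) in the shSIK2 library, against 7.80 FPKM (1312 reads) in the scrambled library, which is 2.19-fold lower (1.99 to 2.42). The shSIK2 library held 16347399 reads on 22790 genes, and the scrambled library 18019225 reads on 21622 genes. The deposited values are not scaled to each library's own total. Scaling both libraries to equal totals adds 0.14 to every log2 ratio of a well measured gene, and the median log2 ratio of the 12866 measured genes was -0.11 as deposited and 0.03 at equal totals. The log2 ratio of SIK2 was -1.11 as deposited and -0.97 at equal totals, just short of 2-fold. All 8 markers of mesenchymal cells were measured, with summed levels of 960 FPKM in shSIK2 and 679 FPKM in scrambled. Of 8 epithelial and luminal markers only GATA3 was, and none of the leukocyte, endothelial and adipocyte markers reached 1 FPKM. The part of the mesenchymal difference in the results was not tested.

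Because the CRTC coactivators act with CREB at cAMP response elements, the promoters of the ZNF genes were searched for the letters of that element. RefSeq promoters (GRCh38.p14, 250 bases before to 50 after the start) were found by symbol for 217 of the 249 genes. The full cAMP response element TGACGTCA, which reads the same on both strands, was in 7 of them (3.23%), against 1.85% of all 35116 promoters in the table. Its shorter form TGACG, searched on both strands as TGACG or CGTCA and contained in every full element, was in 72 (33.2%), against 24.6% of all promoters. Both forms contain CpG, of which the ZNF windows hold a median of 20, against 14 in all promoters, and the part of this in the shares was not tested. The windows printed here are those of the genes that the results turn on. Capitals mark every TGACG or CGTCA, and 8 capitals in a row mark the full element. ZNF426, ZNF561 and ZNF562 are neighbours that carry the full element a few bases before the start and that differ in their ratio. They lie on the minus strand at chr19:9538596-9538895, chr19:9621183-9621482 and chr19:9675051-9675350.
ZNF426: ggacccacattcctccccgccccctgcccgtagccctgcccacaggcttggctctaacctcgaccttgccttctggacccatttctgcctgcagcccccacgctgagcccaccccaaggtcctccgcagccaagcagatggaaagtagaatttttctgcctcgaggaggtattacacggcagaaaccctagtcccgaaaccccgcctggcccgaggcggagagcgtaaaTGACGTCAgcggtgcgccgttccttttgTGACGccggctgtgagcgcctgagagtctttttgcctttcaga
ZNF561: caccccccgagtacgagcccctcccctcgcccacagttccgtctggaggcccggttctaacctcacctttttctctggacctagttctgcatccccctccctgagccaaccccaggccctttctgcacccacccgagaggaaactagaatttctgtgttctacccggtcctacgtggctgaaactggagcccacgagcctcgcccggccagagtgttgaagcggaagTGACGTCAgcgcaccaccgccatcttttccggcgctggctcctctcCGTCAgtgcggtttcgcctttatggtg
ZNF562: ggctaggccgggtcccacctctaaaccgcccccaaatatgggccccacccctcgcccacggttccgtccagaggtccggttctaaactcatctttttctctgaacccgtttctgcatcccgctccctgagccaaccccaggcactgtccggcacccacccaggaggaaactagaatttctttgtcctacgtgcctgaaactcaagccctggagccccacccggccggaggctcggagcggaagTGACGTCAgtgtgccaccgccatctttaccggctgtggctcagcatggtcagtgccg
ZNF134 (plus strand, chr19:57613992-57614291) and ZNF256 (minus strand, chr19:57947657-57947956) had the lowest log2 ratios of the measured genes. The first window holds 1 copy of the shorter form and the second none.
ZNF134: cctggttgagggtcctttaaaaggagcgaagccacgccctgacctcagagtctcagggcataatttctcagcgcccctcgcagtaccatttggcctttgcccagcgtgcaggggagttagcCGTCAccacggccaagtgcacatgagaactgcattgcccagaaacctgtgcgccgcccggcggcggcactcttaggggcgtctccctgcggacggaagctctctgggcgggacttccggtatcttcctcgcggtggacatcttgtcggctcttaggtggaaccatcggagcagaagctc
ZNF256: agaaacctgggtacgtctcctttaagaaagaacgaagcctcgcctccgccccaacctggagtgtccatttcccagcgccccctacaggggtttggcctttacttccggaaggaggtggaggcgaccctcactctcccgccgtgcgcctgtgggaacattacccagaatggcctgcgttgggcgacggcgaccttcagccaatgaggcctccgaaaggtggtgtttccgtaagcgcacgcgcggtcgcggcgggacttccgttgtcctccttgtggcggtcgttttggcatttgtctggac
The window of ZNF829 (minus strand, chr19:36916242-36916541) also holds the start of ZNF568, which is read the other way.
ZNF829: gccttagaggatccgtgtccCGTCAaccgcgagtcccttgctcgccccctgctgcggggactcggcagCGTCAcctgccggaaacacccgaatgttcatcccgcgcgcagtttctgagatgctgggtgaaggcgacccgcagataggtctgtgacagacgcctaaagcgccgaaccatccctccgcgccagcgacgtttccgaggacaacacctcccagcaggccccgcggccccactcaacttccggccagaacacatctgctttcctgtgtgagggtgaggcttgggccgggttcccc
ZNF792 (minus strand, chr19:34964180-34964479) had the highest log2 ratio.
ZNF792: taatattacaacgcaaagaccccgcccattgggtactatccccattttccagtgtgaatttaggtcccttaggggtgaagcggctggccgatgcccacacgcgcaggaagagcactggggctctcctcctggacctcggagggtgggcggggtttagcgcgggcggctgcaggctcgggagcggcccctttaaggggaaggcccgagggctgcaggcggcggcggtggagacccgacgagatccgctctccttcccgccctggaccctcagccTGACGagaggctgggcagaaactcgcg

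In summed reads the 249 genes took 41931 reads in shSIK2, or 0.257% of the library, and 57017 reads in scrambled, or 0.316%. Their sum was 1.36-fold lower in shSIK2 (1.34 to 1.38), where the library as a whole held 1.10-fold fewer reads. Among the ZNF genes with reads, 149 had fewer reads in shSIK2, 86 had more and 2 had equal numbers. Of all genes with reads, 11693 had fewer in shSIK2 and 12400 more, and of all protein-coding genes 7904 had fewer and 7025 more. The median log2 ratio of the 168 measured genes, computed as log2 of (shSIK2 FPKM + 0.1) over (scrambled FPKM + 0.1), was -0.47, with an order-statistic range of -0.57 to -0.28. This scale understates the change of genes near 0.1 FPKM. The median was -0.34 at equal totals, beside 0.03 for all measured genes.

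At least 2-fold lower in shSIK2 were 27 of the 168 measured genes (16.1%), where 8.28% of all measured genes were. At least 2-fold higher were 6 (3.57%), where 11.0% of all measured genes were. The other 135 lay between. At equal totals 15 genes (8.93%) were lower, where 6.04% of all measured genes were, and 8 (4.76%) were higher, where 13.4% were. Since the 1 FPKM filter used the same values, 7 of the 27 lower genes passed it only through the scrambled library and 4 of the 6 higher genes only through the shSIK2 library. Just inside the filter were ZNF599 (1.01 FPKM in shSIK2 and 0.669 in scrambled), ZNF418 (1.02 and 0.984) and ZNF780A (1.03 and 0.870). Just outside were ZNF431 (0.948 in shSIK2 and 0.989 in scrambled) and ZNF136 (0.516 and 0.977).

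**Figure D1:**
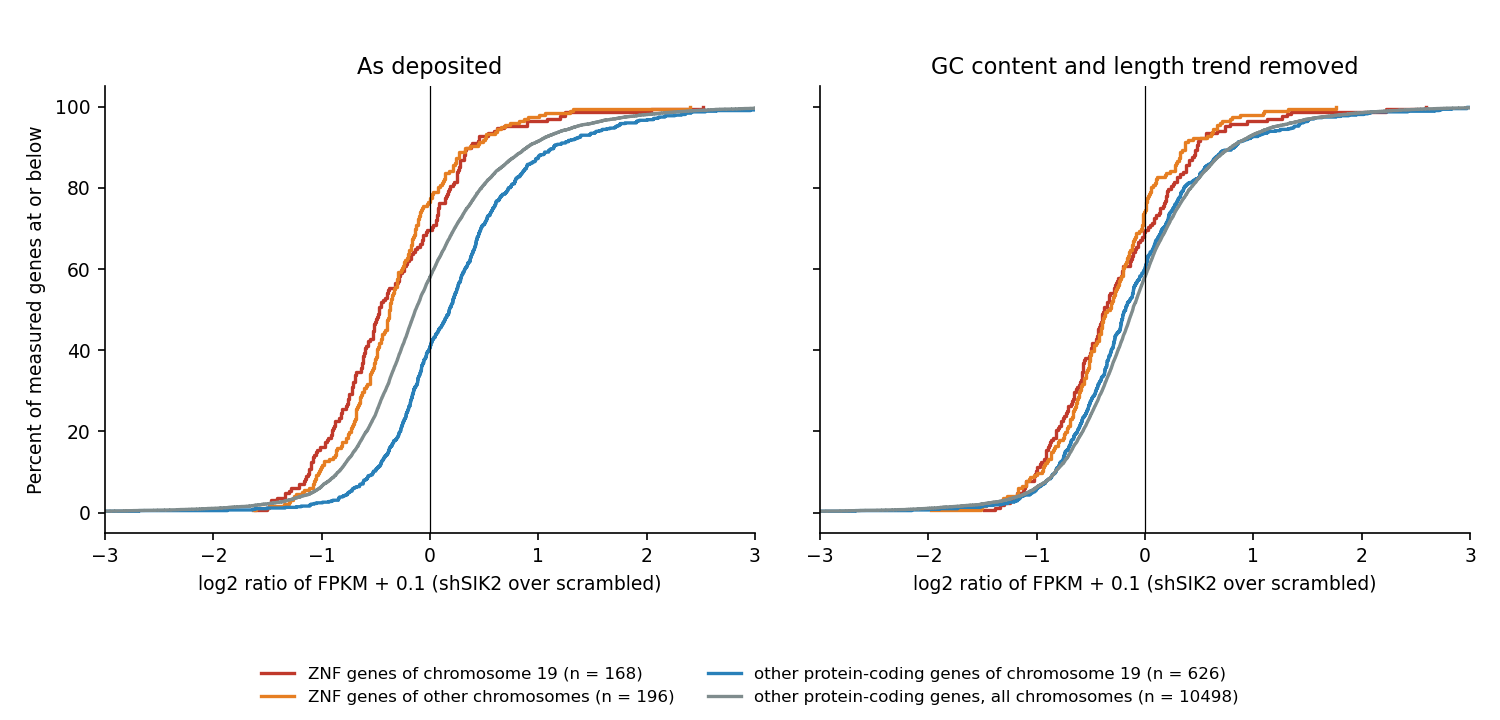
Cumulative percent of measured genes (y axis) by log2 ratio of FPKM + 0.1, shSIK2 over scrambled (x axis), for ZNF genes of chromosome 19 and 3 comparison sets, as deposited (left) and after the trend with GC content and exon length over all measured genes was removed (right). The curve of the ZNF genes of chromosome 19 lies left of that of the other protein-coding genes over most of its range in both panels, with medians of -0.47 against -0.13 as deposited and -0.38 against -0.11 with the trend removed.

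ZNF genes on other chromosomes also read mostly lower in shSIK2. Of 265 ZNF genes on other chromosomes 196 were measured, with a median log2 ratio of -0.37, and 22 (11.2%) were at least 2-fold lower and 5 (2.55%) higher. At equal totals that median was -0.24, and 11 (5.61%) were lower and 6 (3.06%) higher, against 6.04% and 13.4% of all measured genes. Of all measured protein-coding genes 4.42% were then lower and 10.5% higher. The summed reads of the ZNF genes on other chromosomes were 1.35-fold lower in shSIK2 (1.34 to 1.36), beside 1.36-fold for those of chromosome 19. The other 1223 protein-coding genes of chromosome 19 read mostly higher: the 626 measured had a median of 0.18, and 2.40% were lower and 12.3% higher. These are descriptions of 2 libraries, and the differences between the sets were not tested.

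Base composition moved with the ratio over the whole transcriptome. Across 10666 measured protein-coding genes the rank correlation of GC content with the log2 ratio was 0.33, a description over genes that share both libraries, and GC-poor genes read lower in shSIK2. The ZNF genes have GC-poor exons, with a median of 43.9%, against 59.9% for the other measured protein-coding genes of chromosome 19. Among the ZNF genes below 43.9% GC the median log2 ratio was -0.52 and 19.05% were lower, against -0.30 and 8.70% for the other protein-coding genes below that value. Above it the medians were -0.29 for ZNF genes and -0.01 for other genes. After removal of the trend with GC content and exon length, the ZNF genes had a median of -0.38, 17 (10.1%) were lower, where 8.52% of all measured genes were, and 6 (3.57%) were higher, where 9.09% were. The median of all measured genes, which this step keeps, was -0.11. By this count the lower share of the ZNF genes was close to that of all measured genes. It was above that of other protein-coding genes, of which 6.23% were lower and 6.87% higher with the trend removed. With the same step the other protein-coding genes of chromosome 19 had a median of -0.18, below zero. Within the ZNF genes GC content followed the ratio only weakly (rank correlation 0.09 over 168 genes).

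**Figure D2:**
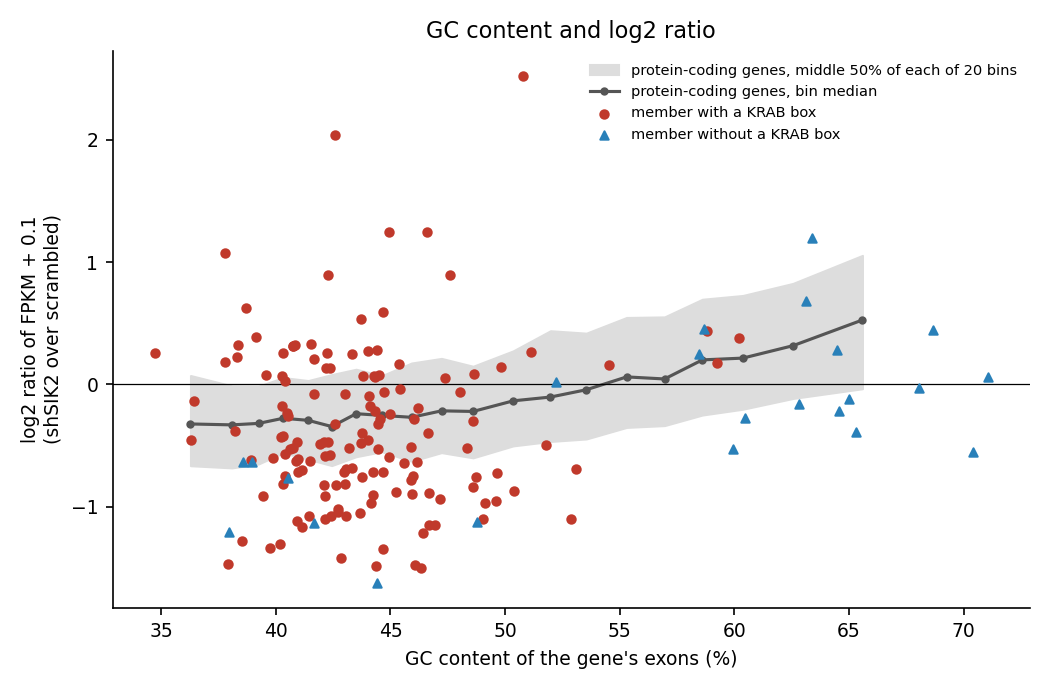
Log2 ratio of FPKM + 0.1, shSIK2 over scrambled (y axis), against the GC content of each gene's exons in percent (x axis). Red circles are measured ZNF genes of chromosome 19 with a KRAB box, blue triangles those without, and the line and band give the median and middle 50% of protein-coding genes in 20 bins of GC content. The ZNF genes gather around their median GC content of 43.9%, where most lie below 0, and the genes without a KRAB box reach the GC-rich end (median 60.5%).

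Log2 ratios differed between the gene clusters along the chromosome. Runs of members with no gap over 500 kb gave 20 groups, of which 7 were single genes and 10 held at least 5 measured members; these 10 clusters contain 235 of the 249 genes. The cluster nearest the end of the long arm, ZNF264 to ZNF446 (chr19:57191500-58481230, GRCh38), was the lowest of the 10. Of its 43 genes 36 were measured, with a median log2 ratio of -0.81 (-0.68 at equal totals, -0.71 with the trend removed), and 14 were at least 2-fold lower and none higher. At equal totals 8 of the 36 were lower, where 6.04% of all measured genes were, and none was higher. The summed reads of the cluster were 6044 in shSIK2, against 10062 in scrambled, which is 1.66-fold lower (1.61 to 1.72). Leaving out ZNF274, its most read gene, gave 1.62-fold. The 132 measured members outside this cluster had a median of -0.38, and 13 of them (9.85%) were lower. Of all measured genes 8.28% were lower, and of other protein-coding genes 6.49%. The 3 measured protein-coding genes inside the cluster that are not zinc finger genes had a median of -0.28, and none was past 2-fold.

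**Figure D3:**
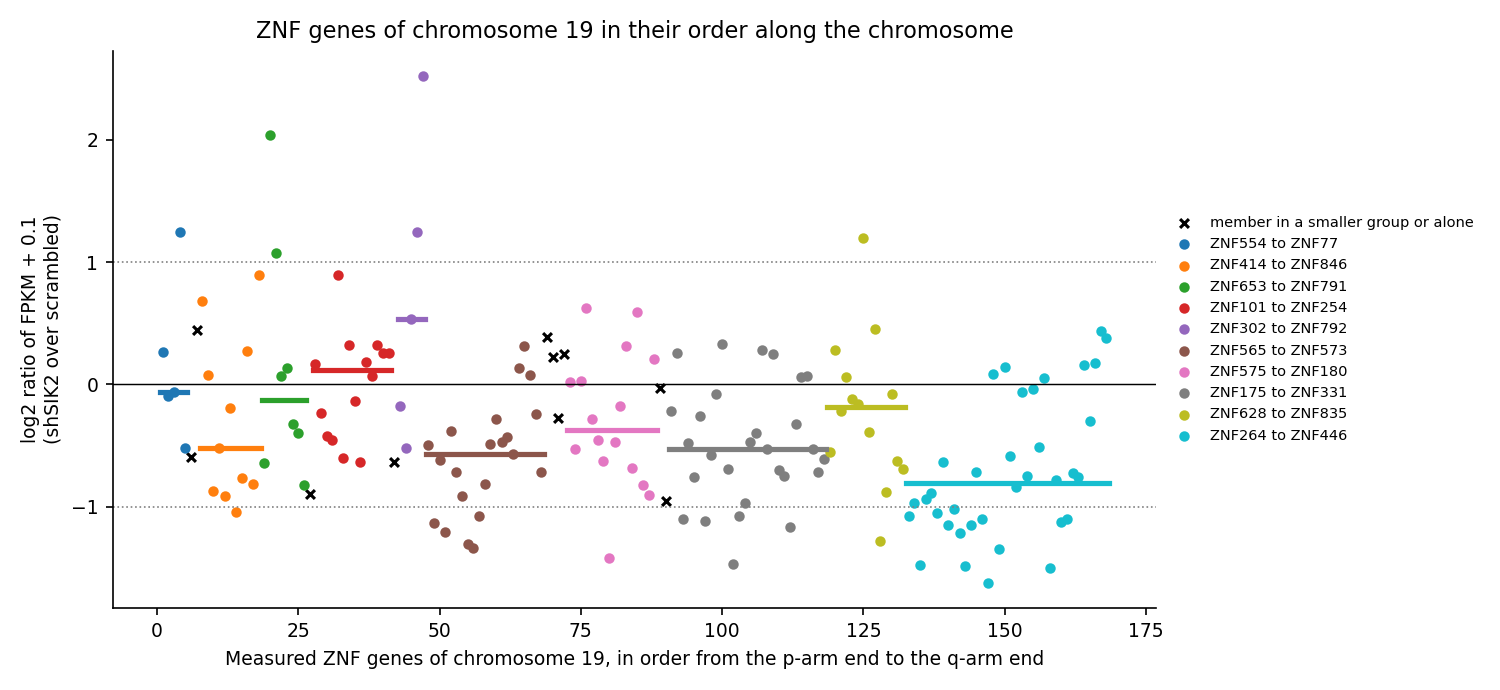
Log2 ratio of FPKM + 0.1, shSIK2 over scrambled (y axis), of the 168 measured ZNF genes in their order along chromosome 19 from the short-arm end to the long-arm end (x axis). Colours mark the 10 clusters with at least 5 measured members, horizontal bars their medians, crosses the other members, and dotted lines 2-fold. The ZNF264 to ZNF446 cluster has a median of -0.81 and 14 genes below the lower dotted line, and the ZNF101 to ZNF254 cluster has a median of 0.12 and none.

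Within that last cluster 3 stretches differed, and they were picked after the values were seen. All 17 genes from ZNF264 to ZNF134 (chr19:57191500-57624723) had fewer reads in shSIK2, with sums of 1838 in shSIK2 and 4125 in scrambled. Of the 15 measured there, 10 were at least 2-fold lower, and their median was -1.07. The next 21 genes, from ZNF211 to ZNF837, had fewer reads in 16 cases and more in 5, with a median of -0.74 over 16 measured genes. The last 5, from ZNF584 to ZNF446, had more reads in shSIK2 in 4 cases, with a median of 0.18 and sums of 1017 reads in shSIK2 and 861 in scrambled.

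The ZNF565 to ZNF573 cluster (chr19:36182060-37817300) had 26 genes, 21 measured, and a median of -0.57 (-0.43 at equal totals, -0.42 with the trend removed). Of the 21, 5 were lower as deposited and 3 at equal totals, where 8.28% and 6.04% of all measured genes were. The reads of the cluster summed to 7015 in shSIK2 and 12198 in scrambled, 1.74-fold lower (1.69 to 1.79), and 1.52-fold lower without ZNF146, its most read gene. Here too the genes fell into 2 stretches, again picked after the values were seen. All 19 genes from ZNF565 to ZNF569 had fewer reads in shSIK2 (6120 in shSIK2, 11352 in scrambled), while the next 7, from ZNF570 to ZNF573, had 895 reads in shSIK2 and 846 in scrambled. Across all clusters, a measured member and the next measured member of its cluster were correlated in their log2 ratios (rank correlation 0.34 over 151 neighbour pairs). Neighbours share base composition, sequence and the libraries, so this is a description.

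The ZNF175 to ZNF331 cluster (chr19:51571298-53580269) held 40 genes, and its 28 measured members had a median of -0.52, with 5 lower and none higher. At equal totals 2 of the 28 were lower and none higher. Of all measured genes 8.28% were lower as deposited and 6.04% at equal totals. The reads of the ZNF175 to ZNF331 cluster summed to 5768 in shSIK2 and 7864 in scrambled. Medians were -0.52 over 11 measured genes from ZNF414 to ZNF846 (-0.44 with the trend removed), and -0.37 over 16 from ZNF575 to ZNF180, with 1 gene lower in each. At equal totals none was lower from ZNF414 to ZNF846 and 1 was from ZNF575 to ZNF180. The ZNF628 to ZNF835 cluster is GC-rich for this family, with a median GC content of 63.1%. Its 14 measured genes had a median of -0.19 as deposited, -0.05 at equal totals and -0.67 with the trend removed, and 1 gene was lower and 1 higher.

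The largest cluster by span had similar summed reads in both libraries. From ZNF101 to ZNF254 (chr19:19668796-24129961), 37 genes span 4.46 Mb, and only 14 of them were measured. Their median was 0.12 (0.25 at equal totals, 0.31 with the trend removed), and the reads summed to 3181 in shSIK2 and 3250 in scrambled. None was past 2-fold as deposited, and 1, ZNF93, was higher by that rule at equal totals. More reads in shSIK2 were found for 17 of the 37 genes, fewer for 13, and 6 had none in either library, among them ZNF208, which at 36 fingers has the longest array of the family. The ZNF653 to ZNF791 cluster on the short arm had 26 genes but only 8 measured, with a median of -0.13. Of the 8, 2 were higher, where 11.0% of all measured genes were. Of its 18 genes below 1 FPKM, 13 had more reads in shSIK2 and 4 fewer, with sums of 512 in shSIK2 and 388 in scrambled. In the small cluster from ZNF302 to ZNF792, 5 of 5 genes were measured and 2 were at least 2-fold higher, again beside 11.0% of all measured genes. The median was 0.53, the value of ZNF599, which passed the filter only through shSIK2. The reads of that cluster, not scaled to library totals, summed to 1177 in shSIK2 and 1223 in scrambled, 1.04-fold lower (0.958 to 1.13). The library as a whole held 1.10-fold fewer reads in shSIK2, and at equal totals the cluster's median log2 ratio was 0.66. The 5 genes from ZNF554 to ZNF77 had a median of -0.06, which was above 0 at equal totals (0.065), as was that of ZNF653 to ZNF791 (0.001).

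**Figure D4:**
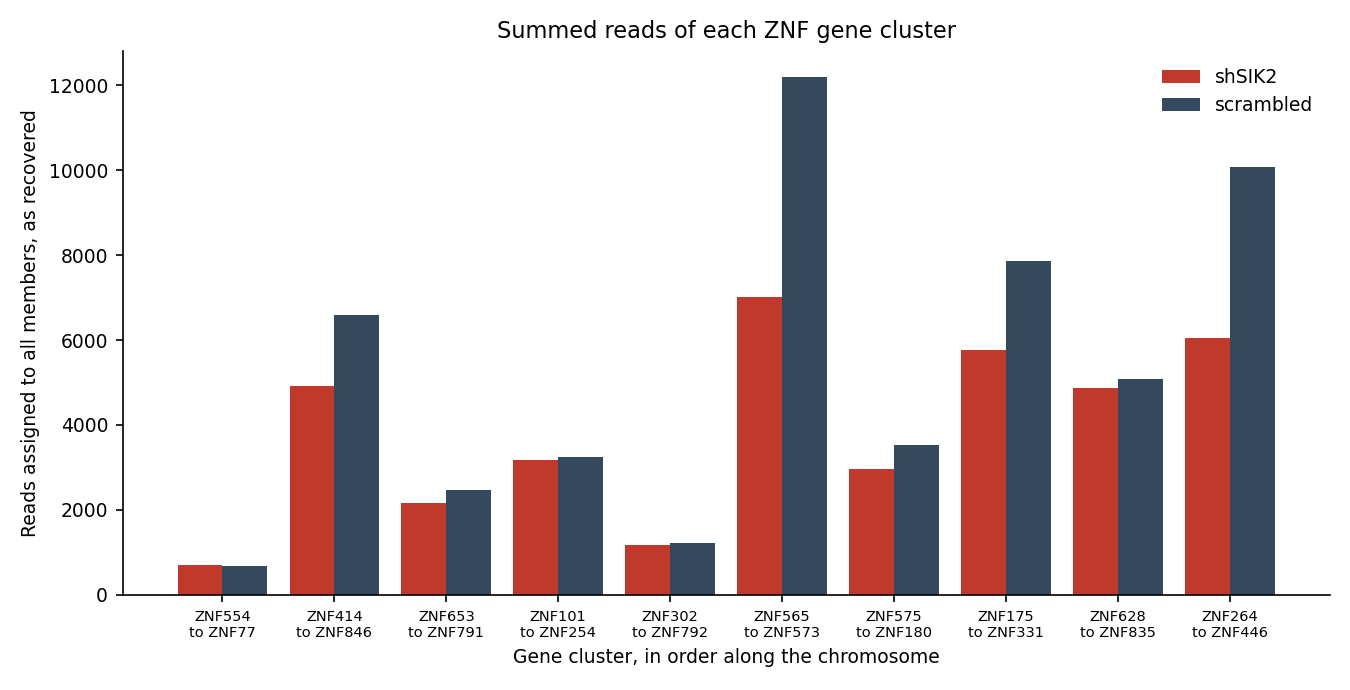
Reads assigned to all members of each cluster with at least 5 measured members, in order along chromosome 19 (x axis), as recovered from the deposited FPKM (y axis, from 0), with shSIK2 in red and scrambled in dark blue. The largest gaps are in ZNF565 to ZNF573 (7015 against 12198 reads) and ZNF264 to ZNF446 (6044 against 10062), and the bars of ZNF101 to ZNF254 (3181 against 3250) differ little.

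Among single genes, ZNF134 (ENSG00000213762, chr19:57614233-57624723), in which no KRAB box was found, was the lowest. It had 1.74 FPKM (153 reads) in shSIK2, against 5.53 FPKM (488 reads) in scrambled, and was 3.19-fold lower (2.66 to 3.85). ZNF256, from the same cluster, had 1.07 FPKM (40 reads) in shSIK2 and 3.21 FPKM (120 reads) in scrambled. ZNF773 had 0.743 FPKM in shSIK2 and 2.26 FPKM in scrambled. All 3 lie within the cluster at the chromosome end and were between 3-fold and 3.19-fold lower in reads. ZNF460, of the same cluster, had 1.23 FPKM in shSIK2 and 3.59 FPKM in scrambled, 2.92-fold lower in reads (2.23 to 3.85). ZNF480 and ZNF222 were the lowest in 2 other clusters. ZNF480 had 2.18 FPKM (181 reads) in shSIK2 and 6.22 FPKM (516 reads) in scrambled, and ZNF222 had 1.80 FPKM (62 reads) in shSIK2 and 4.97 FPKM (171 reads) in scrambled. The other 6 of the 12 lowest were ZNF551, ZNF829, ZNF567, ZNF583, ZNF419 and ZNF260, between 2.34-fold and 2.74-fold lower in reads. Exons of 8 of these 12 genes overlap another annotated gene, so their reads are less certain, while ZNF134, ZNF256, ZNF829 and ZNF567 have no such overlap. The lower set of 27 is completed by ZNF146, ZNF274, ZNF568 and ZNF426, described with their values elsewhere in the text, and by 11 genes outside the rule for naming. These are ZNF649, ZNF614, ZNF880 and ZNF888 in the ZNF175 to ZNF331 cluster and ZNF264, ZNF548, ZNF749, ZNF772, ZNF549, ZNF416 and ZNF329 in the ZNF264 to ZNF446 cluster, with log2 ratios of -1.02 to -1.17.

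At the other end, 2 genes had few reads in scrambled. ZNF792 (ENSG00000180884, chr19:34956354-34964049) had 1.18 FPKM (86 reads) in shSIK2 and 0.124 FPKM (9 reads) in scrambled, 9.56-fold higher (4.81 to 21.6). ZNF823 had 1.09 FPKM (46 reads) in shSIK2 and 0.190 FPKM (8 reads) in scrambled, 5.75-fold higher (2.69 to 14.1). Both passed the level filter only through the shSIK2 library. ZNF57 (2.45 FPKM in shSIK2 and 0.977 in scrambled), ZNF30 (2.55 and 1.02) and ZNF441 (1.51 and 0.663) were 2.28-fold to 2.51-fold higher in reads. ZNF581, at 26.7 FPKM (796 reads) in shSIK2 and 11.6 FPKM (345 reads) in scrambled, was the only higher gene with over 10 FPKM. It shares exons with ZNF580 and CCDC106 on the same strand, so its reads are uncertain, and its log2 ratio of 1.20 was 0.74 with the trend removed. Next came ZNF846, ZNF93, ZNF414, ZNF404, ZNF233 and ZNF599, all under 2-fold in FPKM, although ZNF846 and ZNF93 passed 2-fold at equal totals (log2 ratios of 1.03 and 1.02).

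**Figure D5:**
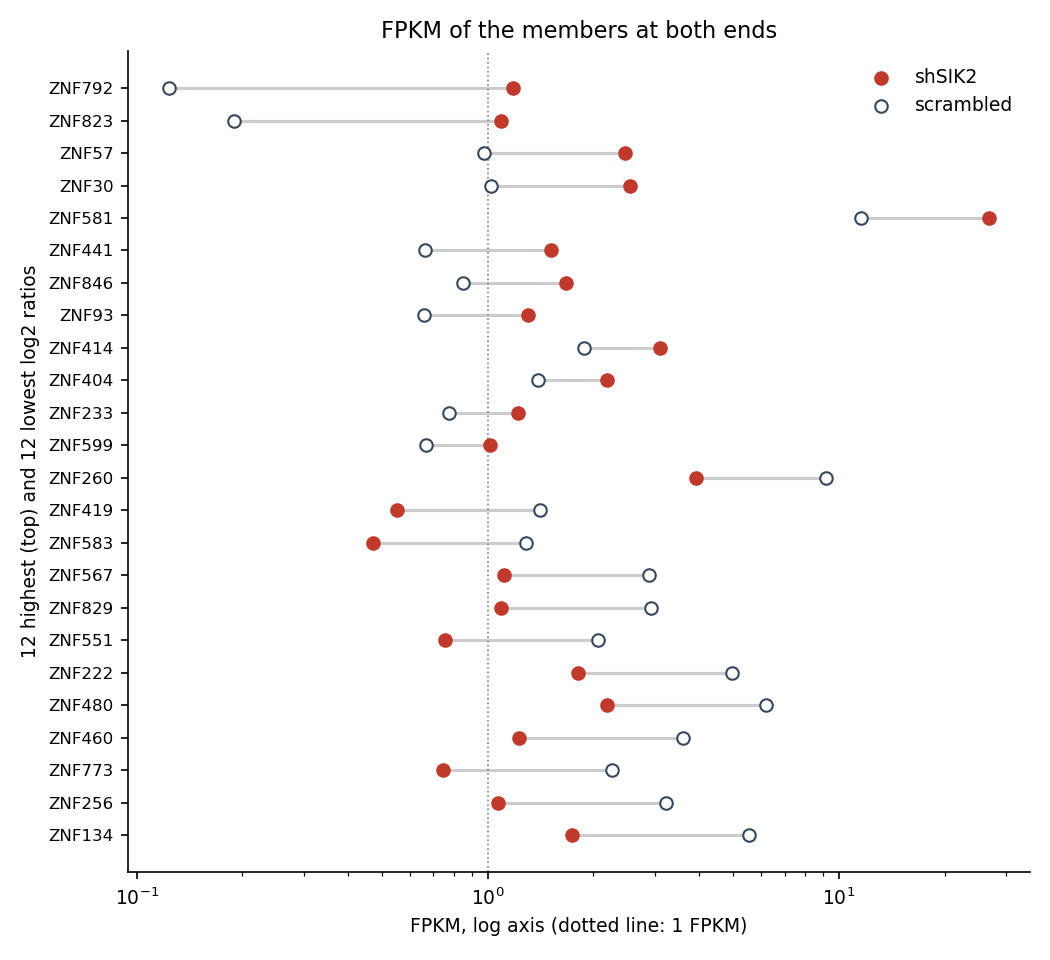
FPKM (x axis, log scale) of the 12 measured ZNF genes with the highest and the 12 with the lowest log2 ratio (y axis, ordered), with filled red points for shSIK2 and open points for scrambled. The 12 lowest genes stand at 0.470 to 3.92 FPKM in shSIK2 and at 1.29 to 9.17 FPKM in scrambled, and ZNF792 and ZNF823 have the widest gaps, at 1.18 and 1.09 FPKM in shSIK2 and 0.124 and 0.190 FPKM in scrambled.

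Most of these genes are faint. The median of the mean level was 2.01 FPKM over the 168 measured members, against 7.29 FPKM over all measured protein-coding genes, and only 4 exceeded 10 FPKM as the mean of both libraries. The most abundant was ZNF146 (ENSG00000167635, chr19:36214602-36238774), a finger-only protein without a KRAB box, known as OZF and amplified in some pancreatic cancers. It had 32.5 FPKM (2312 reads) in shSIK2 and 71.2 FPKM (5067 reads) in scrambled, 2.19-fold lower (2.09 to 2.30). At equal totals its log2 ratio was -0.99, just short of 2-fold, and its exons overlap those of ZNF565 on the other strand. ZNF580 had 18.1 FPKM in shSIK2 and 20.2 FPKM in scrambled, and ZNF317 had 7.12 FPKM in shSIK2 and 13.1 FPKM in scrambled. The rest of the 10 most abundant, besides ZNF581, were ZNF358, ZNF787, ZNF561, ZNF579, ZNF627 and ZNF266, with log2 ratios between -0.64 and 0.45. With the trend removed ZNF358 turned from 0.45 to -0.21 and ZNF579 from 0.28 to -0.35, and ZNF787 passed 2-fold at -1.02, against -0.39 as deposited.

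Genes with a known part in silencing retrotransposons read higher in some cases and lower in others. ZNF91, which represses SVA elements, had 1.82 FPKM (325 reads) in shSIK2 and 1.43 FPKM (256 reads) in scrambled. ZNF93, which represses LINE-1 elements, had 1.31 FPKM (125 reads) in shSIK2 and 0.658 FPKM (63 reads) in scrambled, 1.98-fold higher in reads (1.45 to 2.73). Both lie in the ZNF101 to ZNF254 cluster, and both read higher in shSIK2. ZNF417 and ZNF587 are closely related repressors of HERV-K elements. ZNF417 had 1.14 FPKM (82 reads) in shSIK2 and 1.66 FPKM (120 reads) in scrambled, and ZNF587 had 3.34 FPKM (421 reads) in shSIK2 and 3.42 FPKM (432 reads) in scrambled. ZNF417 shares 37.6% and ZNF587 18.8% of its 50-base words with other genes, so the reads of both are uncertain. How much the 2 share with each other was not measured. The log2 ratio of ZNF587, -0.04, was 0.10 at equal totals.

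ZNF274 (ENSG00000171606, chr19:58183029-58213562) is known for recruiting SETDB1 to the ends of zinc finger genes, which then carry repressive chromatin. It had 3.60 FPKM (515 reads) in shSIK2 and 7.84 FPKM (1121 reads) in scrambled, 2.18-fold lower (1.96 to 2.42). Its log2 ratio was -1.10 as deposited, -0.96 at equal totals and -1.12 with the trend removed. ZNF473, a component of the machinery that cleaves histone transcripts, had 3.84 FPKM (455 reads) in shSIK2 and 7.51 FPKM (889 reads) in scrambled. ZNF568, whose mouse counterpart represses a placental Igf2 transcript, had 1.44 FPKM in shSIK2 and 3.15 FPKM in scrambled, 2.19-fold lower (1.87 to 2.57). All 3 read lower in shSIK2, and ZNF473 did so without passing 2-fold.

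Besides ZNF146 (-1.13, described above), the members named next for parts in cancer or signalling had log2 ratios from -0.89 to 0.25. ZNF304, reported in the silencing of INK4-ARF, had 1.61 FPKM in shSIK2 and 3.06 FPKM in scrambled. ZNF350, also called ZBRK1, a binding partner of BRCA1, had 0.976 FPKM in shSIK2 and 1.72 FPKM in scrambled. ZNF382, a candidate tumour suppressor silenced by methylation, had 1.23 FPKM in shSIK2 and 2.08 FPKM in scrambled. These 3 read lower in shSIK2, between 1.70-fold and 1.91-fold in reads, with no interval reaching 1. ZNF671, another gene silenced by methylation in tumours, had 67 reads in shSIK2 and 60 in scrambled. ZNF224, a repressor of aldolase A transcription that stayed below 1 FPKM, had 104 reads in shSIK2 and 103 in scrambled. ZNF160, a repressor of TLR4, had 318 reads in shSIK2 and 304 in scrambled, and ZNF675, a partner of TRAF6, had 150 in shSIK2 and 124 in scrambled. For these 4 the intervals of the read ratio include 1. That ratio is not scaled for the 1.10-fold fewer reads of the shSIK2 library, so 1 does not stand for equal shares. At equal totals the log2 ratios were 0.27 (ZNF671), 0.14 (ZNF224), 0.20 (ZNF160) and 0.38 (ZNF675). Of the rest of the 20 members listed for a known role, ZNF558, ZNF43, ZNF808, which is needed for pancreas development, and the imprinted ZNF331 had log2 ratios between -0.60 and 0.08, and ZNF536, a gene of the nervous system, had no reads.

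KRAB boxes and finger counts were read from the coding sequences. A KRAB box was found in 214 of the 249 genes, and the median gene codes for 12 fingers. Measured genes with a KRAB box had a median log2 ratio of -0.48 over 145 genes, with 23 lower (15.9%) and 5 higher (3.45%). Those without had -0.22 over 23 genes, with 4 lower (17.4%) and 1 higher (4.35%). Of all measured genes 8.28% were lower and 11.0% higher. The genes without the box are GC-rich (median 60.5%), and with the trend removed the order turned round, to -0.33 with the box and -0.60 without. Genes of at most 10, of 11 to 14 and of more fingers had medians of -0.41, -0.52 and -0.30. The rank correlation of finger number with the log2 ratio was -0.01 over 168 genes.

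Some members have a gene start in GENCODE close to that of a neighbour read in the opposite direction. Of 12 pairs with a member whose starts lay within 1 kb, 8 had both genes measured, 5 of them with the same sign and 3 with opposite signs. ZNF829 and ZNF568, whose starts are 38 bases apart, were both at least 2-fold lower as deposited. ZNF568 was short of 2-fold at equal totals (-0.94) and with the trend removed (-0.91). ZNF829 had 1.09 FPKM (145 reads) in shSIK2 and 2.91 FPKM (387 reads) in scrambled, beside the values of ZNF568 above. ZNF416 and its neighbour ZIK1 were both lower, with log2 ratios of -1.10 (-0.97 at equal totals) and -1.51. The transcription elongation gene ELOF1 (log2 ratio 0.61) and ZNF627 (-0.64) had opposite signs, as did the kinase gene VRK3 (0.10) and ZNF473 (-0.95). The RefSeq start of ZNF627 lies 38109 bases from its GENCODE start, so a shared promoter is not shown for ELOF1 and ZNF627. Strandedness was not given in the sources used here. Reads of overlapping pairs such as VRK3 and ZNF473 therefore cannot be told apart.

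Of the 7 genes whose window holds the full cAMP response element, 5 are neighbours in the ZNF414 to ZNF846 cluster, and 6 of the 7 were measured. All but ZNF561 had log2 ratios below 0, as did 117 of the 168 measured ZNF genes (69.6%), and only ZNF426 was past 2-fold (-1.04, and -0.91 at equal totals). ZNF426 had 2.36 FPKM (305 reads) in shSIK2 and 4.97 FPKM (643 reads) in scrambled. ZNF562 had 3.22 FPKM (719 reads) in shSIK2 and 5.73 FPKM (1280 reads) in scrambled. ZNF561, which has the same 8 bases 23 bases before its start, had 8.18 FPKM (908 reads) in shSIK2 and 6.74 FPKM (748 reads) in scrambled. The first 2 read lower in shSIK2 and ZNF561 read higher, although the element starts 21, 7 and 23 bases before the start of ZNF426, ZNF562 and ZNF561. The other 4 had log2 ratios of -0.76 (ZNF121), -0.19 (ZNF266, -0.05 at equal totals), -0.94 (ZNF543) and -0.94 (ZNF547, below 1 FPKM). The shorter form was in 9 of 24 lower and 1 of 5 higher genes with a window, and measured genes with and without it had medians of -0.52 and -0.43. A match of letters is a description and shows no binding.

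Of 36 genes for KRAB corepressors and heterochromatin factors 35 were measured, with none past 2-fold and a median log2 ratio of -0.16 (-0.03 at equal totals). The other, the DNA methyltransferase DNMT3B, stayed below 1 FPKM, with 56 reads in shSIK2 and 11 in scrambled, 5.09-fold higher (2.64 to 10.8). TRIM28, the corepressor bound by KRAB domains, had 67.3 FPKM in shSIK2 and 68.5 FPKM in scrambled. SETDB1, the methyltransferase it recruits, had 4.98 FPKM in shSIK2 and 6.90 FPKM in scrambled. Among those furthest from 0 were CHD4 (log2 ratio 0.82), EHMT2 (0.79) and FAM208A (-0.77). Of 19 other zinc finger genes of chromosome 19 with names outside the ZNF series, 11 were measured. ZIK1 (0.598 FPKM in shSIK2 and 1.88 in scrambled) and ZFP82 (1.17 and 2.80) were at least 2-fold lower. ZSCAN1 (1.10 and 0.22) and ZFP14 (1.04 and 0.425) were at least 2-fold higher. Of all measured genes 8.28% were lower and 11.0% higher. ZIK1 passed the level filter only through scrambled, and ZSCAN1 and ZFP14 only through shSIK2. The median of the 11 was -0.15, and 4 of the 19 had no reads.

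Counting could blur the members, since the family is repetitive and crowded. Exons of 140 of the 249 genes overlap those of another gene, and 89 of these were measured, with a median log2 ratio of -0.53. The 79 measured genes without such overlap had a median of -0.26, with 11 lower (13.9%) and 4 higher (5.06%). Of all measured genes 8.28% were lower and 11.0% higher. At equal totals the median of the 79 was -0.12, with 4 lower (5.06%) and 5 higher (6.33%). The shares of all measured genes were then 6.04% and 13.4%, and those of other protein-coding genes 4.34% and 10.6%. The lower share of the 79 was thus below that of all measured genes and above that of other protein-coding genes. Of the 27 lower genes 16 have an overlap. Over 20% of 50-base words are shared with other genes in 26 members, of which 8 were measured, and none of the 27 lower and 6 higher genes is among them.

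Below 1 FPKM a few genes differed in reads, and these were picked after their values were seen. ZNF114 had 19 reads in shSIK2 and 0 in scrambled, at least 6.33-fold higher against a floor of 3 reads. ZNF69 had 46 reads in shSIK2 and 10 in scrambled, 4.6-fold higher (2.29 to 10.2). ZNF540 had 26 reads in shSIK2 and 5 in scrambled, and ZNF836 had 57 in shSIK2 and 17 in scrambled. All 4 read higher in shSIK2. ZNF320 had 10 reads in shSIK2 and 36 in scrambled, and it shares 75.2% of its 50-base words with other genes.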

How the data were processed

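RNA from 2 BT549 cultures was sequenced, 1 library each, with groups taken from the sample titles. The deposited tables hold FPKM and no counts, per the file headers. The submitters' processing notes name HISAT2 2.0.5 and hg18; counter, annotation and strandedness were not given in the sources used here. Gene identifiers matched GENCODE release 29 (GRCh38), the source of all coordinates and exon properties, so the aligned build is unsettled. Deposited FPKM times exon length gave multiples of 58.3 in both libraries (100% of values above 0 whole within 0.001), taken as reads. Ratios used a pseudocount of 0.1 FPKM and genes reaching 1 FPKM in either library. Intervals are exact Clopper-Pearson, conditional on the sum, at 95%. The GC and length trend was removed by medians of 20 bins. KRAB boxes came from a profile of 23 proteins (pyhmmer 0.12.3, 10 bits), fingers from cysteine and histidine spacing. Python 3.11.15 and scipy 1.17.1 were used, with steps tested on simulated data. Named genes are the 12 lowest and 12 highest ratios, 10 highest levels, cluster extremes and 20 of known role; others are marked as chosen after their values were seen. Members and lists were chosen with earlier results of these data known. Alternatives changed scaling, pseudocount, minimum, trend, overlap and cluster gap.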

Additional observations from a re-analysis of the deposited data

How the results depend on the processing

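No paired analysis was possible because each group has 1 library, and no replicate could be left out. The count of lower ZNF genes, 27 as reported, was 15 at equal totals, 7 with a pseudocount of 1 FPKM, 6 with a minimum of 5 FPKM, 17 with the trend removed and 11 without genes whose exons overlap another gene's, which leaves fewer genes to count. The count of higher genes, 6 as reported, was 1 with a pseudocount of 1 FPKM, 1 with a minimum of 5 FPKM and 14 with no minimum. The median of -0.47 was -0.280 with no minimum and -0.256 without overlapping genes, and negative under every alternative run. Cluster medians changed sign from ZNF554 to ZNF77 (0.065 at equal totals, 0.097 with the trend removed) and from ZNF653 to ZNF791 (0.001 at equal totals). From ZNF628 to ZNF835 the median, -0.19 as reported, was -0.701 with gaps of up to 1000 kb, where the run joins its neighbour, -0.622 with gaps of up to 250 kb, where 7 genes are left, and -0.048 at equal totals. From ZNF414 to ZNF846 it was -0.764 with gaps of up to 250 kb. From ZNF101 to ZNF254 it was 0.249 at equal totals and 0.311 with the trend removed. Beyond the fewer genes or the joined runs, the causes were not tested. Of 22 named genes past 2-fold, 18 stayed so at equal totals, 8 with a pseudocount of 1 FPKM and 17 with the trend removed. Signs changed for 1 of 58 named genes at equal totals (ZNF587) and 3 with the trend removed (ZNF587, ZNF358 and ZNF579). Low depth limits the faint genes most: the ratio of 86 to 9 reads for ZNF792 allows 4.81-fold to 21.6-fold.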
